A study of Mus musculus with 2 samples.

Results

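The DNA damage checkpoint and homologous recombination genes are a set of 42 genes, taken by symbol from a deposited table of 24013 gene symbols. For a symbol with several transcript rows, the gene was read from the row of highest average over the libraries. All 42 were found, and all 42 had a mean of at least 50 normalized counts, the minimum set for the 10518 genes that were compared. The libraries came from CD8+ T cells of C57BL/6 mouse spleen, 1 from mice with the genotype DGKζ-/- aged 6 weeks and 1 from wild-type (WT) mice aged 7 weeks. Both groups of cells were isolated as naive CD8 T cells and stimulated for 24 h with antibodies to CD3 and CD28 fixed to the dish, so both were activated, and no unstimulated sample was analysed here. DGKζ is a kinase that removes diacylglycerol, a second messenger of the T cell receptor. The labels do not say how many animals were pooled in a library or which part of the gene was deleted.

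Cells copy their genome at each division, and a stalled fork or a broken strand activates the kinases ATR or ATM, which phosphorylate CHK1 and CHK2 and hold the cell cycle. Homologous recombination then repairs the break from the sister chromatid: the ends are resected, BRCA1, PALB2 and BRCA2 promote strand exchange, and Fanconi anaemia proteins act at crosslinked DNA. Activated CD8 T cells divide very fast, and many of these genes are known to be transcribed with the S phase program.

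With 1 library per genotype there is no replicate error and no test, and values describe these libraries. Each fold is the ratio of normalized counts, DGKζ-/- over WT, with an exact 95% interval that covers counting error only. The log2 ratio is the same comparison after 10 normalized counts are added to each value. The DGKζ-/- library held 13464169 reads and the WT library 37211969 reads, summed over all gene symbols of the table. Dgkz itself had 2591 normalized counts in the DGKζ-/- library and 6714 in the WT library, 2.59-fold lower (2.46 to 2.74). Xist, an RNA transcribed in female cells, had 9206 normalized counts in the DGKζ-/- library and 14.0 in the WT library. Age, the animals' sex as Xist shows it and genotype cannot be told apart in any value below. The CD8 T cell label was checked on its markers. Cd8a had 8455 normalized counts in the DGKζ-/- library and 13090 in the WT library. Cd3e had 1744 in the DGKζ-/- library and 2439 in the WT library. Lck went the other way, at 10609 in the DGKζ-/- library and 9217 in the WT library. Of the 7 CD8 T cell markers found, 1 had a log2 ratio above 0. The 4 CD4 T cell markers summed to 427 in the DGKζ-/- library and 510 in the WT library. Among them, Cd4 was 3.21-fold lower in the DGKζ-/- library (2.22 to 4.82), and Foxp3 had a fold of 1.22 (1.03 to 1.46). All 10 listed B cell markers were detected in both libraries, at a summed 2241 normalized counts in the DGKζ-/- library and 3052 in the WT library, with 0 of the 8 that were compared above a log2 ratio of 0. The 5 NK cell markers summed to 2500 normalized counts in the DGKζ-/- library and 3154 in the WT library. Of the 3 compared, 1 was above a log2 ratio of 0, Klrk1 (fold 1.08, 0.955 to 1.22). Klrd1 was 2.95-fold lower in the DGKζ-/- library (2.33 to 3.78) and Nkg7 1.25-fold lower (1.16 to 1.34). Ncr1 had 0 reads in the DGKζ-/- library and 7 in the WT library, with a fold interval of 0 to 2.04. Klrb1c had 0 in the DGKζ-/- library and 9 in the WT library (0 to 1.49). The 7 myeloid markers found summed to 268 normalized counts in the DGKζ-/- library and 273 in the WT library. Fcgr1 had 0 reads in the DGKζ-/- library and 7 in the WT library, with a fold interval of 0 to 2.04. Mpeg1 had a fold of 1.46 (1.15 to 1.85) and Cd68 one of 0.749 (0.518 to 1.06). The part of other cell types in the values below was not tested. In bulk RNA, fewer cells of a type and less RNA per cell cannot be told apart.

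The DNA damage and recombination genes stood close to the same level in both libraries, with the exception of H2afx, which encodes the histone variant H2AX. H2afx was the 1 gene of the 42 at least 2-fold higher in the DGKζ-/- library, and 0 were at least 2-fold lower, beside 1.3% (higher) and 1.29% (lower) among all the genes compared. At a fold of 1.5 the count was again 1 (H2afx) for higher values and 0 for lower ones, beside 4.53% and 5.07% of all genes in those directions. The 42 genes had a median log2 ratio of 0.060 and all genes compared one of 0.055, and with both libraries set to equal totals these medians were -0.029 and -0.033. The log2 ratio was positive for 29 of the 42, beside 58.2% of all genes compared, and for 17 of the 42 at equal totals. The shares of all genes compared were not counted at equal totals, so counts at that scaling have no background here or below. The median absolute log2 ratio was 0.099 for these genes and 0.19 for all genes compared. For 39 of the 42 the whole counting interval lay within a 1.5-fold difference in either direction, and the exceptions were H2afx, Fancc and Rad51c. That count was not made over all genes compared, so whether it is unusual cannot be said. The width of an interval also follows the number of reads.

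**Figure D1:**
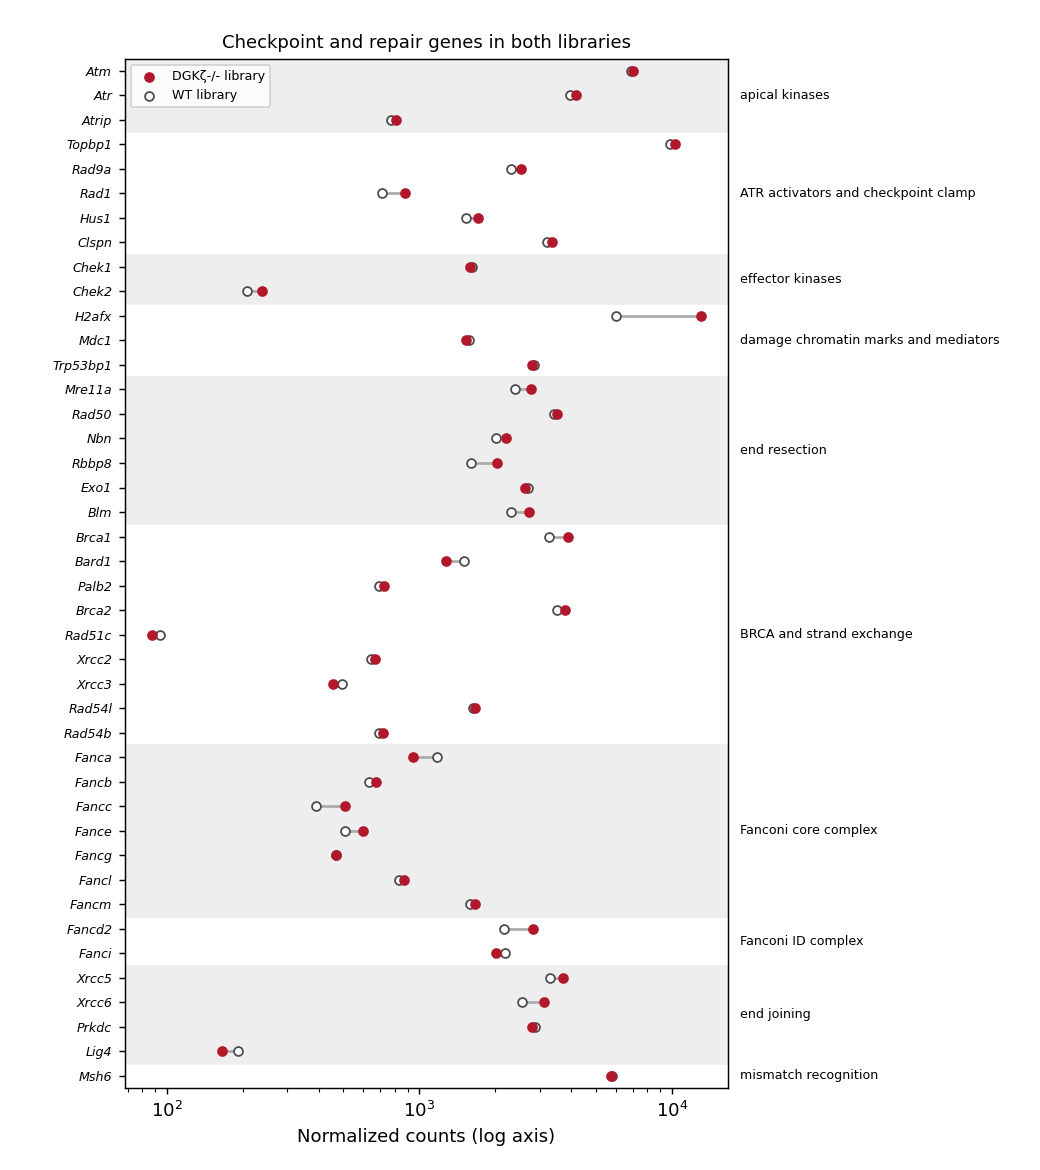
Normalized counts (log axis) of the 42 genes, grouped by role, in the DGKζ-/- library (filled) and the WT library (open), 1 library each. The paired points nearly coincide for most genes, and H2afx stands apart at 12986 in the DGKζ-/- library and 6018 in the WT library.

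A sequence feature that the choice of genes did not use was found in a minority of their promoters, at a higher share than among all genes compared. RefSeq promoters (build GRCm38.p6, 250 bases before to 50 bases after the start) were matched by symbol for 32 of the 42 genes. The 10 not matched, and so not searched, were H2afx, Fancd2, Rbbp8, Rad9a, Rad50, Nbn, Rad54b, Xrcc2, Exo1 and Prkdc. The files themselves were made on mm9 and carry no coordinates. An E2F-like site was searched on both strands as any of TTTCCCGC, TTTGGCGC, TTTCGCGC and TTTGCCGC. E2F factors bind such letters at genes of the G1/S transition. The site was found in the promoters of 10 of 32 genes, or 31.2%, against 5.19% of the 7933 compared genes with a promoter and 2.6% of all 27025 promoters grouped by symbol. The median GC content was 60.2% for the promoters of these genes and 61.0% for those of the genes compared. The 11 matches, of which Rad51c has 1 in each of its promoters, are shown because their share differs from that of all genes compared, and 22 of the 32 genes had no match. Capitals mark the match.
Bard1 (chr1:71103163-71103192, minus strand): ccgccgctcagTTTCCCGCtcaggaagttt
Brca2 (chr5:150522442-150522471, plus strand): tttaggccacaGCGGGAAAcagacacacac
Chek2 (chr5:110839820-110839849, plus strand): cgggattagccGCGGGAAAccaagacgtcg
Clspn (chr4:126556990-126557019, plus strand): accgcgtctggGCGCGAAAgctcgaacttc
Fancg (chr4:43010335-43010364, minus strand): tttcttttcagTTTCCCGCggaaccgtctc
Mdc1 (chr17:35841471-35841500, plus strand): tcttcagcctgTTTCCCGCcggtagccgca
Msh6 (chr17:87975054-87975083, plus strand): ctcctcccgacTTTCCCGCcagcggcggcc
Rad51c (chr11:87404477-87404506, minus strand): gtttccagcgcTTTCGCGCctcttgctcta
Rad51c (chr11:87404941-87404970, minus strand): cccccgcgaggGCGGGAAAagcaaggggtc
Topbp1 (chr9:103305187-103305216, plus strand): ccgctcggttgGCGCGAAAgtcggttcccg
Xrcc6 (chr15:82016312-82016341, plus strand): agggggtggaaGCGGGAAAtgcgagtgggc

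The counts for a second element were lower in these genes than in mitotic genes. The cell cycle homology region (CHR), read here as TTTGAA on either strand, is known from promoters of genes expressed in G2 and mitosis. It was found in the promoters of 2 of the 32 genes (6.25%), Bard1 and Hus1, and in 14 of 21 mitotic genes (66.7%), where 13.7% of the genes compared and 20.2% of all promoters held it. The E2F-like site had the reverse order, with 1 of 21 mitotic genes (4.76%) and 12 of 24 replication fork and origin genes. The shorter core GCGGGAA, which is contained in part of the E2F-like words, was in 13 of the 32 (40.6%) against 10.5% of the genes compared. The CCAAT box (CCAAT on either strand) was in 19 of 32 (59.4%) against 43.4%. The windows below are examples, with the CHR-like letters in Hus1, a gene of the checkpoint clamp, and for contrast in the mitotic genes Cdc20 and Ube2c. The match of Bard1, the 1 gene of the 32 with both elements, and those of the other mitotic genes are not shown.
Hus1 (chr11:9011362-9011391, minus strand): ctaagtaaagtgTTCAAAgttttaaaaaca
Hus1 (chr11:9011331-9011360, minus strand): tttaaacagtttTTCAAAatcagtcatcta
Cdc20 (chr4:118437344-118437373, minus strand): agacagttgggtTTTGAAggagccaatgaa
Ube2c (chr2:164769888-164769917, plus strand): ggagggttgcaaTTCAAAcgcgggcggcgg

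A match is a run of letters and not a measured binding site. The 10 genes with an E2F-like match had a median log2 ratio of 0.027 (range -0.25 to 0.29), and the 22 without one had a median of 0.067 (range -0.32 to 0.38). These ranges overlap over most of their length. Neither group holds H2afx, Fancd2 or Rbbp8, whose promoters were not matched.

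**Figure D2:**
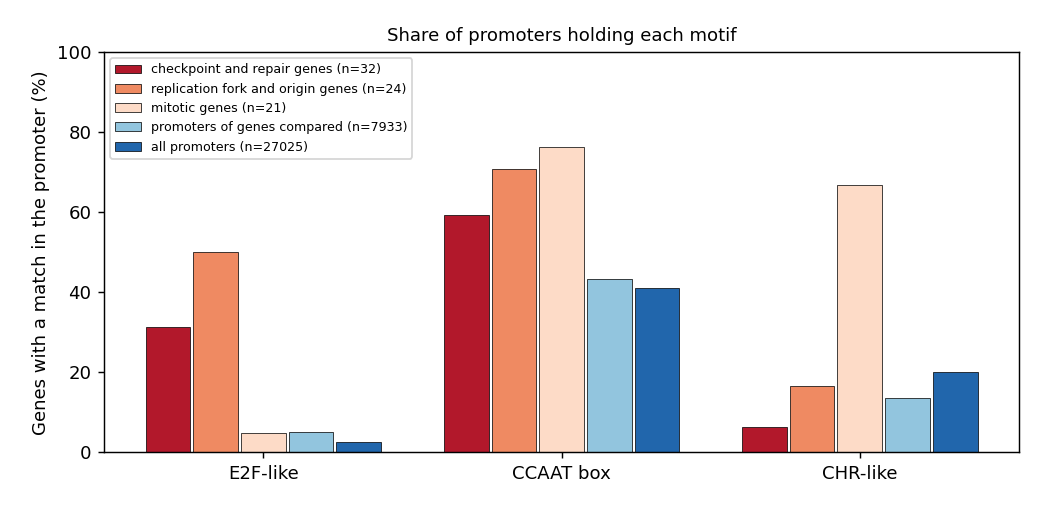
Share of genes (%) whose promoter holds an E2F-like, CCAAT or CHR-like match, for the 32 checkpoint and repair genes with a promoter, 24 replication genes, 21 mitotic genes, the genes compared and all promoters. The checkpoint and repair genes stand at 31.2% for the E2F-like site and 6.25% for the CHR-like site, and the mitotic genes at 4.76% and 66.7%.

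The apical kinases differed little. Atm, which encodes the kinase that answers double-strand breaks, had 7040 normalized counts in the DGKζ-/- library and 6912 in the WT library, a fold of 1.02 (0.983 to 1.06). Atr, the kinase for stalled forks, had 4188 in the DGKζ-/- library and 3955 in the WT library, a fold of 1.06 (1.01 to 1.11). Atrip, the obligate partner of ATR, had 808 in DGKζ-/- cells and 771 in WT cells, a fold of 1.05 (0.941 to 1.16). At equal totals all 3 log2 ratios were below 0.

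The genes of the ATR activator, the checkpoint clamp and the CHK1 adaptor had log2 ratios above 0 in all 5 cases, beside 58.2% of all genes compared. At equal totals 3 of 5 were above 0. Topbp1, the direct activator of ATR, had 10256 normalized counts in the DGKζ-/- library and 9860 in the WT library (fold 1.04, 1.01 to 1.07). The clamp formed by RAD9A, RAD1 and HUS1 is loaded on DNA at damaged sites. Rad1 had 876 normalized counts in the DGKζ-/- library and 709 in the WT library, a fold of 1.24 (1.11 to 1.37). Hus1 had 1706 in DGKζ-/- cells and 1532 in WT cells (1.11, 1.03 to 1.20), and Rad9a had 2523 in DGKζ-/- cells and 2314 in WT cells (1.09, 1.03 to 1.16). Clspn, the adaptor that brings CHK1 to ATR, had 3349 in DGKζ-/- cells and 3208 in WT cells (1.04, 0.991 to 1.10). A counting interval above 1 was found for 4 of these 5 genes, beside 35.8% of all genes compared. At equal totals it was found for 1 of the 5, with no share of all genes counted.

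Both effector kinase genes had intervals that included 1. Chek1, the target of ATR, had 1592 normalized counts in the DGKζ-/- library and 1610 in the WT library, a fold of 0.989 (0.917 to 1.07). Chek2, the target of ATM, was low, with 238 in the DGKζ-/- library and 208 in the WT library, and its fold of 1.15 had a wide interval of 0.937 to 1.40.

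Of the genes that mark and read damaged chromatin, H2afx was the 1 that passed a 1.5-fold difference. H2AX is phosphorylated around a break by ATM, ATR and DNA-PK, and that mark recruits MDC1 and then TRP53BP1. H2afx had 12986 normalized counts in the DGKζ-/- library and 6018 in the WT library, from 7572 reads in the DGKζ-/- library and 10321 in the WT library. The fold was 2.16 (2.09 to 2.22) and the log2 ratio 1.11, and 106 of the 10518 genes compared had a higher one. Mdc1, the reader of the H2AX mark, had 1523 in the DGKζ-/- library and 1571 in the WT library (fold 0.969, 0.898 to 1.05). Trp53bp1, which steers breaks toward end joining, had 2789 in DGKζ-/- cells and 2836 in WT cells (0.983, 0.929 to 1.04). The log2 fold change of H2afx in the authors' deposited table was smaller, 0.22. The table measures RNA, and phosphorylated H2AX was not measured.

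H2afx was read beside the other histone genes, a list added after its value had been seen. The log2 ratio was positive for 55 of the 57 clustered histone genes compared (median 0.66), and 0 of the 57 exceeded H2afx. Hist1h2an (2024 normalized counts in the DGKζ-/- library, 997 in the WT library) and Hist1h2af (2298 in the DGKζ-/- library, 1134 in the WT library) were nearest, with log2 ratios of 1.01 each. Many clustered histone genes are near-identical copies of others in the same histone family. Reads may have been split among such copies, so their single values are uncertain. Among the unclustered H2A variants, H2afz had a log2 ratio of 0.41, H2afj 0.46, H2afv 0.21 and H2afy 0.026. H2AX is known to be made in S phase from a stem-loop RNA as clustered histones are, and also as a polyadenylated RNA, and the table does not separate these forms. The H2afx transcript is short, at 1384 bases. The 1456 compared genes within 25% of that length had a median log2 ratio of 0.15, and 27 of them (1.85%) were at least 2-fold higher. With a running trend over transcript length removed, an alternative added after the data had been seen, the log2 ratio of H2afx was 1.01.

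**Figure D3:**
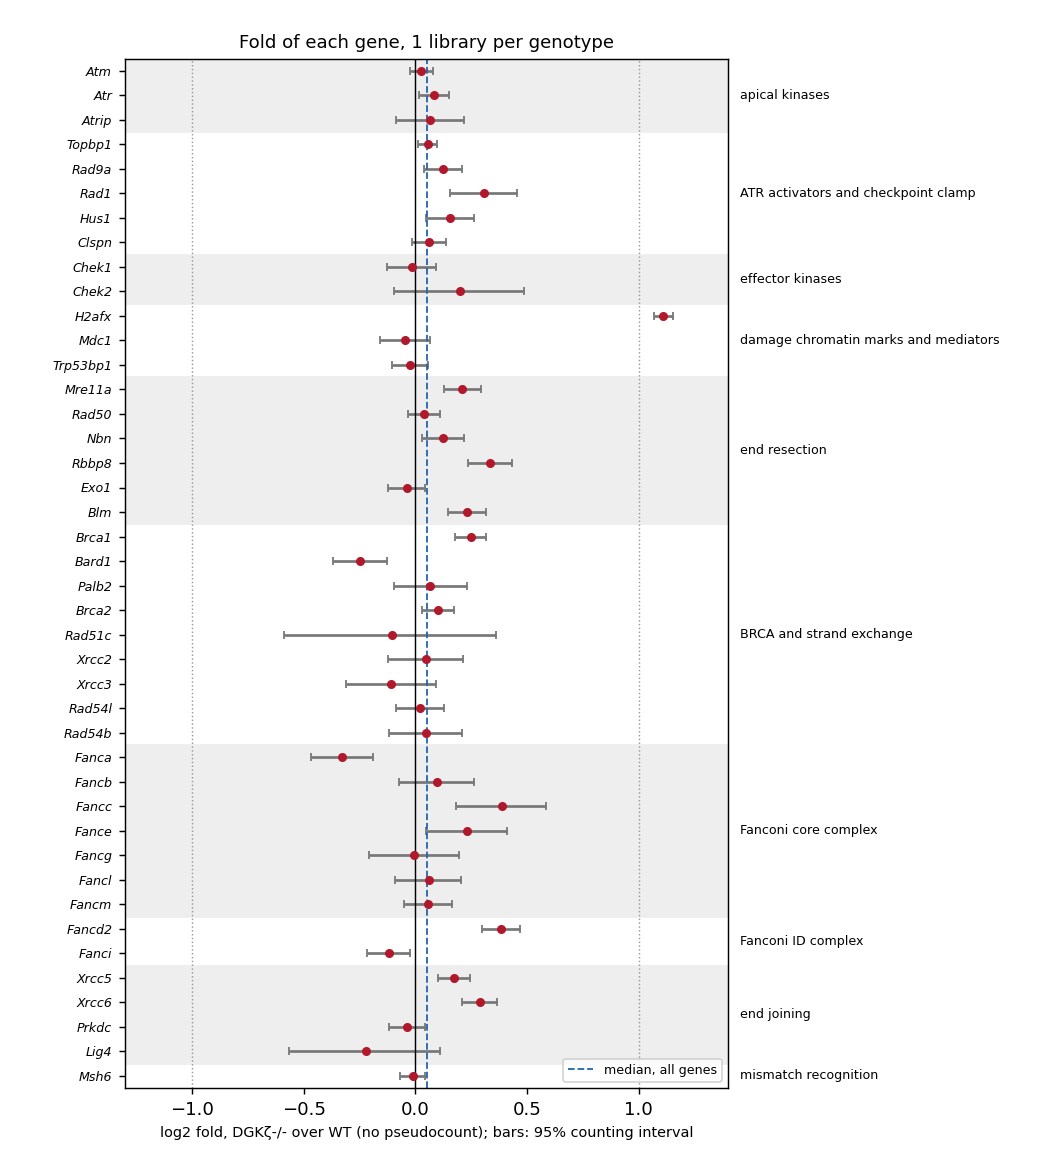
Fold of each of the 42 genes, DGKζ-/- over WT, on a log2 axis without a pseudocount, with 95% counting intervals as bars and the median of all genes compared (0.055) as a dashed line. H2afx lies beyond the dotted line at 2-fold, and the other 41 genes lie between a fold of 1.31 higher (Fancc) and 1.25 lower (Fanca).

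Of the 6 end resection genes, 5 had a log2 ratio above 0, beside 58.2% of all genes compared, and 4 at equal totals. Rbbp8 encodes CtIP, which starts resection together with the MRE11 nuclease, and had 2024 normalized counts in the DGKζ-/- library and 1606 in the WT library, a fold of 1.26 (1.18 to 1.35). Its 4 transcript rows gave log2 ratios from 0.31 to 0.33. Mre11a had 2768 in DGKζ-/- cells and 2391 in WT cells (1.16, 1.09 to 1.23), and Nbn, which ties the complex to ATM, had 2199 in DGKζ-/- cells and 2016 in WT cells (1.09, 1.02 to 1.16). Rad50, the third subunit, had 3521 in DGKζ-/- cells and 3427 in WT cells (1.03, 0.977 to 1.08). Of the genes for long-range resection, the helicase gene Blm had 2713 in the DGKζ-/- library and 2311 in the WT library (1.17, 1.11 to 1.24). The nuclease gene Exo1 had 2610 in DGKζ-/- cells and 2680 in WT cells (0.974, 0.918 to 1.03). An interval above 1 was found for 4 of the 6 and one below for 0, beside 35.8% and 21.7% of all genes compared. At equal totals the counts were 3 and 1, with no such shares counted.

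The BRCA and strand exchange genes went in both directions by small amounts. Brca1, whose protein promotes resection, had 3886 normalized counts in the DGKζ-/- library and 3273 in the WT library, a fold of 1.19 (1.13 to 1.25). Bard1, its obligate partner in a ubiquitin ligase, had 1271 in the DGKζ-/- library and 1508 in the WT library, 1.19-fold lower (1.09 to 1.29). Brca2, which acts in strand exchange after resection and carries the E2F-like match shown above, had 3758 in DGKζ-/- cells and 3500 in WT cells (fold 1.07, 1.02 to 1.13). Palb2, the bridge between BRCA1 and BRCA2, had 724 in DGKζ-/- cells and 690 in WT cells (1.05, 0.936 to 1.17).

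The other 5 strand exchange genes had intervals that included 1. Rad51c had the fewest reads of the set, 51 in the DGKζ-/- library and 161 in the WT library, or 87.5 normalized counts in the DGKζ-/- library and 93.9 in the WT library. Its fold of 0.932 had a wide interval of 0.666 to 1.28, so counting error alone leaves the fold uncertain within those bounds. Xrcc2 had 667 in DGKζ-/- cells and 645 in WT cells (1.03, 0.918 to 1.16) and Xrcc3 had 456 in DGKζ-/- cells and 492 in WT cells (0.928, 0.806 to 1.07). The translocase gene Rad54l had 1653 in DGKζ-/- cells and 1628 in WT cells (1.02, 0.943 to 1.09), and the related Rad54b had 715 in DGKζ-/- cells and 692 in WT cells (1.03, 0.922 to 1.16).

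The Fanconi anaemia genes held the largest folds of the set apart from H2afx, and they too pointed both ways. Fancd2, which is ubiquitinated at a crosslink, had 2819 normalized counts in the DGKζ-/- library and 2163 in the WT library, a fold of 1.30 (1.23 to 1.38). Fanci, the subunit that pairs with it, had 2003 in the DGKζ-/- library and 2176 in the WT library, 1.09-fold lower (1.02 to 1.16). In the core complex, the ubiquitin ligase that acts on this pair, Fancc had 508 in the DGKζ-/- library and 388 in the WT library (1.31, 1.14 to 1.501). Its 3 transcript rows gave log2 ratios from 0.24 to 0.38. Fance had 599 in DGKζ-/- cells and 510 in WT cells (1.17, 1.03 to 1.33).

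Fanca had the lowest fold of all 42 genes. It had 940 normalized counts in the DGKζ-/- library and 1178 in the WT library, 1.25-fold lower (1.14 to 1.38). Fancl, the catalytic subunit, had 868 in DGKζ-/- cells and 833 in WT cells (fold 1.04, 0.940 to 1.15), and Fancg, a scaffold, had 468 in DGKζ-/- cells and 469 in WT cells (0.997, 0.866 to 1.15). The X-linked gene Fancb had 672 in the DGKζ-/- library and 629 in the WT library (1.07, 0.9503 to 1.20), beside the difference in Xist between the libraries. Fancm, the anchor that binds branched DNA, had 1655 in DGKζ-/- cells and 1592 in WT cells (1.04, 0.965 to 1.12). Of the 9 Fanconi genes, 3 had an interval above 1, 2 below it and 4 across it, shares close to the 35.8% above and 21.7% below of all genes compared.

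The genes of DNA end joining, the pathway that competes with recombination, were led by the Ku pair. Xrcc6 (Ku70) had 3109 normalized counts in the DGKζ-/- library and 2546 in the WT library (1.22, 1.16 to 1.29), and Xrcc5 (Ku80) had 3713 in DGKζ-/- cells and 3290 in WT cells (1.13, 1.07 to 1.19). Prkdc, the kinase that Ku recruits, had 2785 in DGKζ-/- cells and 2859 in WT cells (0.974, 0.920 to 1.03). Lig4, the ligase of the pathway, had 165 in the DGKζ-/- library and 192 in the WT library, a fold of 0.858 (0.676 to 1.08) from 96 reads in the DGKζ-/- library and 329 in the WT library. Msh6, a mismatch sensor, had 5719 in DGKζ-/- cells and 5764 in WT cells (0.992, 0.954 to 1.03), the value closest to 1 after Fancg.

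Over the whole set, 17 of the 42 had a counting interval above 1 and 3 below it (Bard1, Fanca and Fanci), and 22 had one that included 1. Of all genes compared, 35.8% had an interval above 1 and 21.7% below. These counts follow the scaling: with both libraries set to equal totals, 10 genes had an interval above 1 and 9 below. The shares of all genes compared were not counted at equal totals, and the 35.8% and 21.7% do not apply there.

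Ratios between subunits of a complex do not depend on the scaling of the libraries, and 11 pairs, chosen after the values had been seen, were set side by side. The interval of the ratio between libraries left 1 for 6 pairs and included it for 5. Among single genes compared, 35.8% had an interval above 1 and 21.7% below. Pairs of other genes were not counted, so whether 6 of 11 is unusual cannot be said. Per kilobase of transcript, Brca1 stood at 2.63 times Bard1 in the DGKζ-/- library and 1.87 times in the WT library, a 1.41-fold difference (1.28 to 1.55). Fancd2 stood at 1.19 times Fanci in the DGKζ-/- library and 0.838 times in the WT library, a 1.42-fold difference (1.30 to 1.55). Fanca against Fancg went the other way, at 1.24 times in the DGKζ-/- library and 1.55 times in the WT library, 1.25-fold lower in the DGKζ-/- library (1.05 to 1.48). The ratio between libraries was near 1 for Atr and Atrip (1.01, 0.900 to 1.14), Brca2 and Palb2 (1.02, 0.906 to 1.16) and Hus1 and Rad9a (1.02, 0.929 to 1.12). Reads of overlapping genes on the opposite strand could enter these ratios, since the library kit does not mark the strand. In GENCODE M21 exons, Fanci shares 14.3% of its exon bases with Polg, Fanca 12.3% with Zfp276 and Fancd2 4.64% with Fancd2os. Rad9a, set against Hus1 above, shares 10.8% with Ppp1ca. The largest share was 22.1%, of Trp53bp1 with Tubgcp4, and H2afx shares 10.2% with Gm44335.

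Levels between genes were compared per kilobase of transcript, with GENCODE lengths found for all 42. H2afx was the highest, at 9383 normalized counts per kilobase in the DGKζ-/- library and 4348 in the WT library. Topbp1 came next at 1963 in the DGKζ-/- library and 1887 in the WT library, followed in the DGKζ-/- library by Xrcc6 (1471), Xrcc5 (1453) and Msh6 (1345). In the WT library the order of these was Msh6 (1356), Xrcc5 (1288) and Xrcc6 (1204), values that lie close together. The median was 359 per kilobase in the DGKζ-/- library and 337 in the WT library. The lowest were Chek2 at 105 in the DGKζ-/- library and 91.2 in the WT library, Rad51c at 53.6 in the DGKζ-/- library and 57.5 in the WT library, and Lig4 at 32.7 in the DGKζ-/- library and 38.2 in the WT library. The order was alike in both libraries: 17 genes had the same rank, and no gene moved by more than 5 ranks.

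Among the other genes of DNA repair and replication, 3 of 4 lists had medians between 0.085 and 0.092, beside 0.055 for all genes compared, and the checkpoint and fork protection list had a higher one. Of 34 further recombination and Fanconi genes, 0 were 2-fold different, with a median log2 ratio of 0.092, and the extremes were Ube2t (0.53), the ubiquitin-conjugating enzyme of the Fanconi pathway, and Tonsl (-0.49). Of 29 further end joining, mismatch and excision genes, 0 were 2-fold different, with a median of 0.088, from Dclre1c (0.48), the Artemis nuclease, to Ung (-0.52), the uracil glycosylase. Of 21 further checkpoint and fork protection genes, 0 were 2-fold different, with a median of 0.17, and the highest were the mitotic kinase gene Plk1 (0.72), Cdc25b (0.48) and Dbf4 (0.44), while Wee1, an inhibitor of mitotic entry, stood at -0.23. The 30 replication fork and origin genes had a median of 0.085, from Rrm1 (0.39) to Cdt1 (-0.23), with 0 at 2-fold. At equal totals the medians were 0.0032, -0.00036, 0.079 and -0.0051 for these 4 lists in the same order.

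Mitotic genes had a higher median than these lists, also at equal totals (0.54). The log2 ratio was positive for all 24 mitotic genes (median 0.63), and Nusap1 (1.03) was the 1 at 2-fold. Of the p53 targets, 18 of 20 were compared. Their median was 0.32, but 0.12 at a minimum mean of 200 normalized counts and 0.24 at equal totals. At least 2-fold higher were 4 of them, and 0 were 2-fold lower. Cdkn1a, the inhibitor of cyclin-dependent kinases that p53 induces, had 111 normalized counts in the DGKζ-/- library and 43.1 in the WT library, a fold of 2.58 (1.82 to 3.65). Sesn2 (856 in the DGKζ-/- library, 237 in the WT library), Ddit4 (797 in the DGKζ-/- library, 272 in the WT library) and Fas (581 in the DGKζ-/- library, 215 in the WT library) were the others. Sesn2 and Ddit4 are also known as targets of the stress factor ATF4. Mdm2, which degrades p53, had 2151 in DGKζ-/- cells and 1544 in WT cells, a fold of 1.39 (1.30 to 1.49), while Trp53inp1 had a log2 ratio of -0.94. No test of these differences between lists was made, with 1 library per genotype.

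**Figure D4:**
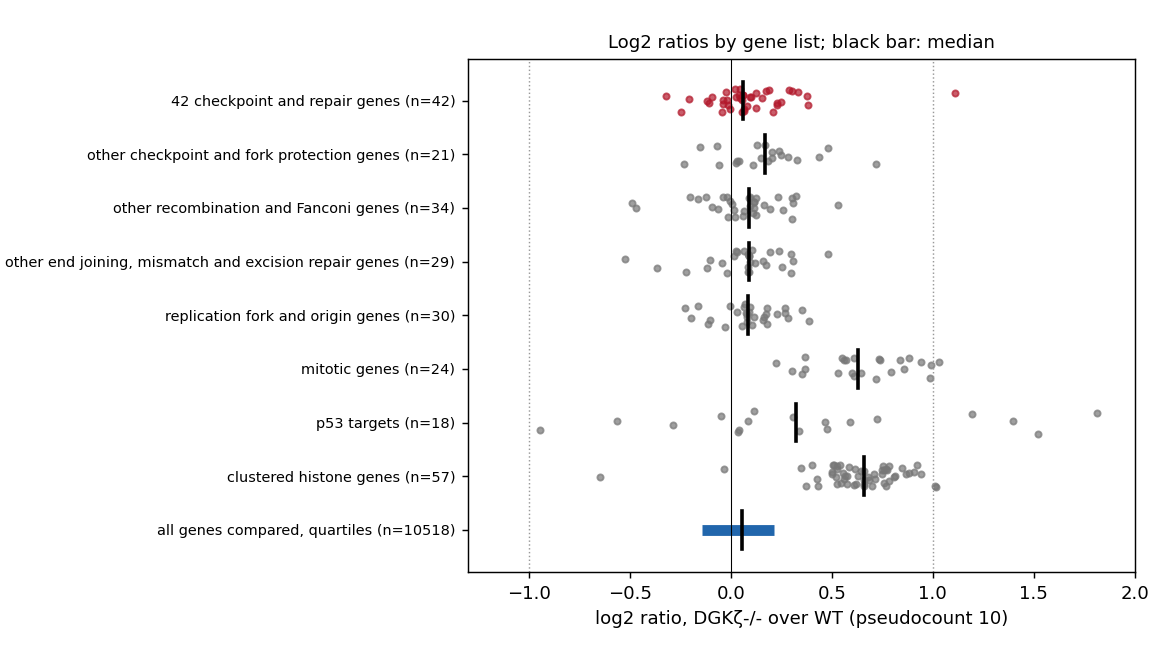
Log2 ratios (DGKζ-/- over WT, pseudocount of 10) of the genes in each list, with the median as a black bar, and the quartiles of all genes compared as a blue bar. The 42 genes centre on 0.060 beside other repair and replication lists, while the medians of mitotic and clustered histone genes are 0.63 and 0.66.

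In the authors' deposited table, which holds their own log2 fold changes and p-values, 0 of 30433 transcript rows with a p-value had an adjusted p under 0.05, and 326 had an unadjusted p under 0.05. Of the 42 genes, Fancd2 had the smallest p in the authors' deposited table (0.231, log2 fold change 0.28), ahead of Rbbp8 (0.303, 0.24) and H2afx (0.306, 0.22). By absolute log2 fold change in the authors' deposited table, H2afx stood below Fancd2, Rbbp8, Fancc (0.24) and Fanca (-0.23), so H2afx does not stand apart there as it does in the normalized counts. How the authors' fold changes were computed is not given in the sources used here.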

How the data were processed

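RNA-seq libraries, 1 per genotype, were prepared with a NEBNext Ultra kit, per the labels' protocols, and the number of animals behind each one is not given. STAR version 2, DESeq and the build mm9 are named without roles, per the submitters' processing notes. The sources used here do not name the read counter or the gene models. The deposited table gives a never-negative signal, the read count per RefSeq transcript row divided by 1 size factor per library. The smallest value divided 100% of the others into whole numbers in each library (relative tolerance 0.0001), so whole reads were recovered, with size factors of 0.583 (DGKζ-/-) and 1.71 (WT). The authors deposited a second table with log2 fold changes, p-values and a test score. Its log2 and p-values are quoted as theirs, and the score was not used.

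Of 33018 rows, 1 (Alg6, shifted columns) was left out. The highest row stood for a symbol, since rows of a gene share reads, and 14 of the 42 genes had several. Comparison was limited to genes averaging 50 normalized counts or more and used log2((DGKζ-/- + 10)/(WT + 10)), which understates the change of low genes. Genes were counted as past 2-fold or 1.5-fold on this log2 ratio. Folds carry exact Clopper-Pearson 95% intervals on the recovered reads, and ratios of pairs exact conditional intervals. Both describe counting error alone, since without molecular identifiers 1 molecule can give several reads. No quasi-likelihood count test was run, because 1 library per group leaves no residual degrees of freedom. Every one of the 42 genes was described. Of each wider list, genes with the largest absolute log2 ratios were named. Others (Mdm2, Wee1, the H2A variants and the single cell type markers) were chosen after their values were seen. The genes and lists were chosen with earlier results of these data known. Promoters were searched by script on both strands. Python 3.11.15, scipy 1.17.1 and pandas 2.3.3 were used, and interval and fold code was tested on simulated data. Alternatives were other pseudocounts, minimums, scalings and row choices.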

Additional observations from a re-analysis of the deposited data

How the results depend on the processing

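The median log2 ratio of the 42 genes turned to -0.029 at equal totals, beside -0.033 for all genes compared, and was 0.12 with a running trend over transcript length removed, 0.0058 after recentring and 0.059 without H2afx (the length trend and the set without H2afx were added after the data had been seen). H2afx remained at least 2-fold higher, and 0 of the 42 at least 2-fold lower, under each alternative that kept H2afx in the set. Its log2 ratio was lowest at 1.01 with the length trend removed and 1.02 at equal totals. Equal totals shifted the median of all genes by -0.088. They gave 10 genes with a counting interval above 1 and 9 below it, and the shares of all genes compared were not counted there. They turned the sign of the log2 ratio of 12 of the 42, none of them past a fold threshold. Genes above the median of all genes compared numbered 24 of 42 as reported, 22 at equal totals, 29 with the length trend removed, 36 with no minimum and 18 of 40 at a minimum of 200. The log2 ratios of these genes did not change with the minimum. The median of all genes did, to -0.082 with no minimum and 0.068 at a minimum of 200. Recentring turned 5 signs and the length trend 6, and no other setting turned any. Counting intervals were not recomputed for recentring, the length trend or the sum of rows. Without replicates, a difference between animals or cultures cannot be estimated. No paired analysis was possible because each genotype has 1 library and the labels give no replicate numbers.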
